A study of Mus musculus with 8 samples.

Results

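Gene expression was compared between paws of mice with collagen-induced arthritis (CIA) and paws of mice that received the adjuvants alone, none of them given the peptide under study. The comparison holds 4 of the 8 arrays of the series, 2 labelled CIA and 2 labelled adjuvant, which were chosen by their labels. All groups were male DBA/1J mice aged 8-10 weeks at the start, in 4 groups of 8 mice with 2 arrays each. CIA mice had 150 µg of collagen II from chicken, mixed into complete Freund adjuvant, injected in the skin at the tail base, and were boosted 3 weeks later in incomplete Freund adjuvant. Adjuvant mice received the same pair of adjuvants on the same schedule without collagen, so oil and mycobacteria were common to every group. The CIA+MLIF and adjuvant+MLIF groups had in addition weekly nasal doses of the monocyte locomotion inhibitory factor (MLIF), a short peptide of the amoeba Entamoeba histolytica. Those 4 arrays entered the estimate of the spread and served as a separate measurement of collagen against adjuvant, here called the contrast with peptide. Whole excised paws were ground, and their RNA was hybridised to Affymetrix Mouse Gene 1.0 ST arrays. The labels call the sample articular tissue. The labels place collection 4 weeks after the booster while the series text places it before the booster, and they do not say whether an array held 1 mouse or a pool. The p-values below therefore measure only the spread between arrays.

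Collagen-induced arthritis is a model of inflammatory joint disease in which immunisation with cartilage collagen breaks tolerance. Antibodies and T cells directed at the collagen are followed by entry of neutrophils and monocytes into the joint, growth of the synovium, breakdown of cartilage by metalloproteinases and resorption of bone by osteoclasts. A whole paw holds much more than joint, since skin, hair, muscle, tendon, fat, nerve, bone and marrow all contribute RNA.

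The deposited log2 signals of CIA array 1 had a median of 6.66 over the probe sets tested, against 7.07 for CIA array 2 and 7.08 for each adjuvant array. All 8 arrays were therefore brought to a common distribution before testing, and every log2 signal below is on that scale. Replicate arrays correlated at 0.988 for CIA and 0.994 for adjuvant, and the SD of the difference between replicates was 0.294 for CIA and 0.199 for adjuvant on the log2 scale. Entries without annotation, taken as controls, had medians of 6.36 and 6.44 for CIA and 6.31 and 6.23 for adjuvant, and a signal under these medians was treated as not above background. With 2 arrays a group, their number limits the precision of every value.

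Tissues of the paw were checked by their defining transcripts. Prg4, the lubricin of joint surfaces, read 12.87 and 12.75 in CIA paws and 12.90 and 12.86 in adjuvant paws, a log2 change of -0.07 that was not called. Joint, bone, tendon, muscle and fat markers were above the controls on all 4 arrays, among them Acan, Ibsp, Tnmd, Ckm and Plin1. The markers of differentiated epidermis stood well above the controls on both CIA arrays, whereas on the adjuvant arrays Krt1, Krt2, Krt9 and Lor were all below the control medians. The adjuvant paws thus gave no signal above background for these genes, although the labels name the same tissue for both groups. Other epidermal genes did give some signal there. Krt5, Krt10 and Krt14 straddled the control medians on the adjuvant arrays, and Hrnr was above them. Each of the 11 genes measured on the basal epidermis list was above the controls on at least 1 adjuvant array.

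Of 28944 probe sets tested with limma, 8127 (28.1%) were called at a Benjamini-Hochberg adjusted p under 0.05. In CIA paws 4176 (14.4%) were higher and 3951 (13.7%) lower than in adjuvant paws. Counted by gene, with 1 probe set for each of 19938 genes, 5400 (27.1%) were called, 3167 (15.9%) higher and 2233 (11.2%) lower. The count rested in part on the 4 arrays with peptide, which entered the estimate of the spread. A fit to the 4 arrays compared alone called 5418. Replicate differences had an SD of 0.093 for adjuvant+MLIF, against 0.294 for CIA and 0.199 for adjuvant. The count was also lower when either adjuvant array was left out. On the deposited scale, where the dim CIA array was left as it was, 1245 were higher and 4108 lower. Without the dim array, the same deposited values gave 3096 higher and 3756 lower, an alternative chosen after seeing the data.

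The contrast with peptide had far fewer calls. Between CIA+MLIF and adjuvant+MLIF paws 413 probe sets (1.43%) passed, 355 higher (1.23%) and 58 lower (0.2%), or 252 genes higher (1.26%) and 39 lower (0.196%). The difference between the 2 contrasts was itself called for 5037 probe sets (17.4%), more positive without peptide for 2544 (8.79%) and more negative for 2493 (8.61%). Without adjuvant array 1 it was called for 3119. The adjuvant+MLIF arrays differed from each other with an SD of 0.093 only, against 0.246 for CIA+MLIF, and with these near-equal arrays averaged and entered as 1 array, 181 probe sets were higher and 2 lower in the contrast with peptide. Leaving out an adjuvant+MLIF array gave 185 higher and 3 lower without array 1, and 182 higher and 2 lower without array 2. Without CIA+MLIF array 1 the counts were 202 and 15, and without CIA+MLIF array 2 they were 328 and 120. The difference between contrasts was called for 2332 and 2319 probe sets without adjuvant+MLIF arrays 1 and 2. By gene the difference was more positive for 1921 (9.63%) and more negative for 1232 (6.18%). Genes called higher in both contrasts numbered 226, which was 7.14% of those called without peptide and 89.7% of those called with it.

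The share of rises that also passed with peptide grew with their size. It was 208 of 623 genes (33.4%) at a rise of 2-fold or more, 124 of 176 (70.5%) at 4-fold and 63 of 69 (91.3%) at 8-fold. Falls did not do this: 1 of 314 genes (0.318%) that fell 2-fold or more was called with peptide, and for 302 of them (96.2%) the difference between contrasts was called. Among rises of 2-fold or more, 55 of 79 genes on the skin lists were also called with peptide, against 9 of 114 on all other lists. Most of these rises were of genes on no list, and 144 of those 430 genes (33.5%) were also called with peptide. The skin genes had median log2 changes of 2.42 without and 1.34 with peptide, while the other listed genes had 1.47 without and -0.13 with it. Genes on no list had 1.37 without and 0.34 with peptide.

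**Figure D1:**
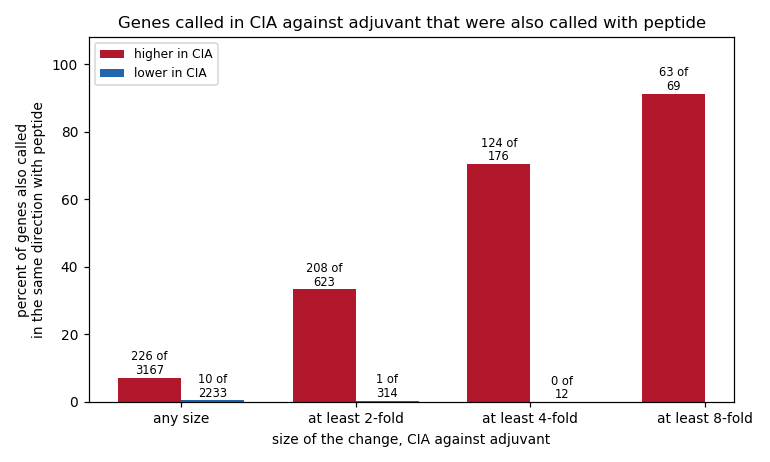
Percent of genes called in CIA against adjuvant paws that were also called, in the same direction, in CIA+MLIF against adjuvant+MLIF paws, by direction and minimum size of the change without peptide. Bars start at 0 and the numbers of genes stand on them, and the share for rises climbs to 91.3% at 8-fold while the share for falls stays under 1%.

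The epidermis gave the largest rises. Of 112 genes on the skin lists 94 rose and 1 fell, and 58 were also higher in the contrast with peptide. In bulk tissue a change in the number of cells of a type and a change in RNA per cell cannot be told apart. On the list of the spinous layer and its desmosomes, the layer in which keratinocytes start to differentiate, 15 of 16 genes rose with a median log2 change of 4.48, or 4.33 with adjuvant signals under the control medians raised to them. The mean log2 signal of that list was 10.31 and 10.25 on the CIA arrays, against 5.93 and 6.05 on the adjuvant arrays. It was 9.43 and 9.41 on the CIA+MLIF arrays, against 6.17 and 6.13 on the adjuvant+MLIF arrays, so both collagen groups stood apart from both adjuvant groups.

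Krt10, a keratin of differentiating layers, read 13.03 and 12.79 in CIA paws and 6.09 and 6.61 in adjuvant paws, a log2 change of 6.56 ± 0.18 (SE, 2 arrays a group, adjusted p = 9.86e-07 by limma). Its adjuvant signals straddled the control medians. Krt2, a keratin of the upper epidermis, read 12.45 and 12.23 in CIA paws, against 5.33 and 5.17 in adjuvant paws. Because the adjuvant signals lay below the control medians, only a bound could be given for Krt2, which was at least 67.3-fold higher once those arrays were raised to the control medians. It read 10.45 and 10.38 in CIA+MLIF paws, against 5.22 and 5.24 in adjuvant+MLIF paws. Dsc3, a part of the desmosome, was at least 10.2-fold higher. Perp, also of the desmosome, rose by 4.56 on the log2 scale with 1 of 2 adjuvant arrays above the controls.

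Genes of the cornified envelope, the protein shell of dead surface cells, rose for all 18 genes of their list, with a median log2 change of 2.58, or 2.36 with dim adjuvant signals raised to the control medians, and 14 were also called with peptide. Leaving out CIA array 1, or either adjuvant array, left 17 of these 18 called. Lor, the main envelope protein loricrin, read 11.64 and 11.68 in CIA paws and 5.46 and 5.31 in adjuvant paws, at least 41.9-fold higher. Hrnr, an S100-fused protein of the same layer, read 13.82 and 13.78 in CIA paws and 7.39 and 7.45 in adjuvant paws, above the controls on all 4 arrays, with a log2 change of 6.38 ± 0.08 (SE). Flg2, a filaggrin relative, was at least 4.27-fold higher in CIA paws, while at 5.35 and 5.81 in CIA+MLIF paws it was below the control medians. Sprr1a, a cross-linked small proline-rich protein, changed by 3.31 without and 0.84 with peptide, a called difference of 2.47. The late cornified envelope genes, counted as a family by their symbols after values had been seen, rose for 15 of 19. Members of this family, of the small proline-rich family and of the desmogleins are near-copies of each other, so signal may be shared between them.

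The basal layer changed less evenly. Of 11 genes 6 rose and none fell, with a median log2 change of 0.57. Krt5 and Krt14, the keratin pair of basal cells, rose by 5.08 and 5.10, and Krt5 read 11.43 and 11.58 in CIA paws, against 6.70 and 6.14 in adjuvant paws. For both keratins 1 of 2 adjuvant arrays was above the controls. The anchoring genes Itgb4, Col7a1 and Lama3 changed by 0.09, 0.21 and 0.08 and were not called. Krt15, a keratin of basal and hair follicle stem cells, rose by 2.77 with 1 of 2 adjuvant arrays above the controls.

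Barrier lipids are made by the upper epidermis, and 9 of 11 genes for their enzymes rose. Elovl4, which lengthens fatty acids of the barrier, read 10.49 and 10.55 in CIA paws and 6.37 and 6.43 in adjuvant paws, a log2 change of 4.11. The lipoxygenases Alox12b and Aloxe3 were at least 4.08-fold and 3.47-fold higher. Of 13 skin kallikreins, protease partners and inhibitors 12 rose, and Spink5, the kallikrein inhibitor, was at least 11.5-fold higher with 9.68 and 9.89 in CIA paws against 5.59 on each adjuvant array. Klk14 alone on that list was not called (log2 change 0.23), although it was called with peptide at 0.75.

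Of 16 hair genes 15 rose, with a median log2 change of 1.72, and 9 were also higher with peptide. The difference between contrasts was called more positive without peptide for 6 of them and more negative for 3. Krtap8-1, a protein of the hair shaft, was among those 3. It read 9.46 and 9.70 in CIA paws and 6.41 and 6.54 in adjuvant paws, a log2 change of 3.11, and it read 10.92 and 10.85 in CIA+MLIF paws and 6.33 and 6.14 in adjuvant+MLIF paws, a change of 4.65. The difference of -1.54 was called (adjusted p = 0.000651). Krt33b, a shaft keratin, changed by 1.40 without and 3.05 with peptide, and its difference of -1.65 was called as well.

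Genes of the inner root sheath, the sleeve that moulds the growing hair, were higher in CIA paws. Krt71 read 9.16 and 9.06 in CIA paws and 6.14 and 6.10 in adjuvant paws, and was at least 7.17-fold higher. It read 6.46 and 6.16 in CIA+MLIF paws, against 6.41 and 6.31 in adjuvant+MLIF paws, so those groups overlapped. Krt25 was at least 3.75-fold higher in CIA paws and, at 5.34 and 5.39 in CIA+MLIF paws, below the control medians there. Tchh, trichohyalin, was above the controls on all 4 arrays and rose by 1.69, against a change of 0.03 with peptide, and the difference of 1.66 was called.

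Of 10 sebaceous gland genes 8 rose and 1 fell without peptide, none was called with peptide, and for 7 the difference was called. Without adjuvant array 2 the count of rises was 5. Far2, which makes fatty alcohols for wax, read 9.11 and 8.88 in CIA paws and 6.24 and 5.72 in adjuvant paws, and was at least 6.63-fold higher, while on the 4 arrays with peptide it was below the control medians. Elovl3 and Awat1, of the same lipid pathway, were at least 4.19-fold and 2-fold higher. On the list of keratins induced in wounded or stressed skin and their partners, all 8 genes were called higher, or 7 on the deposited scale. Their median log2 change was 1.83, or 0.92 with adjuvant signals under the control medians raised to them. Of the 8 genes, 6 were not above the controls on either adjuvant array, and 1 on none of the 4 arrays. Krt6b read 6.73 and 6.80 in CIA paws and 5.13 and 4.91 in adjuvant paws, at least 1.41-fold higher, and 8.79 and 7.74 in CIA+MLIF paws. Krt17 read 9.05 and 8.59 in CIA paws and 5.82 and 5.49 in adjuvant paws, at least 5.86-fold higher, and 7.47 and 7.52 in CIA+MLIF paws.

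**Figure D2:**
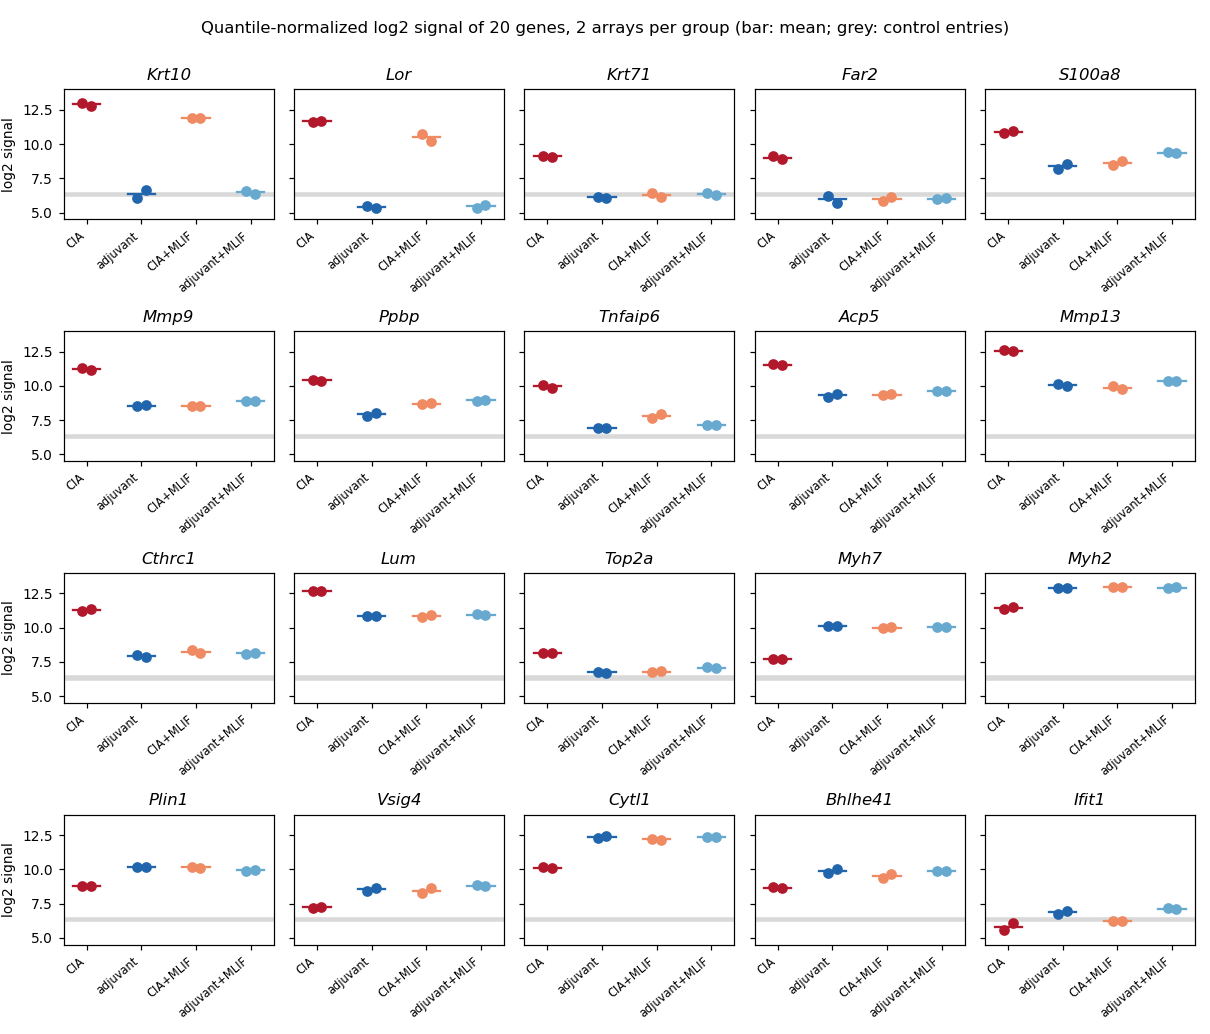
Log2 signal of 20 genes on every array, with CIA first, then adjuvant, CIA+MLIF and adjuvant+MLIF, each point 1 array. The grey band is the range of control medians, and the panels show epidermal Krt10 and Lor high in both collagen groups, while Krt71, Far2, S100a8, Mmp9, Acp5 and Cthrc1 were higher on the CIA arrays than on the other 6 arrays.

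Promoter sequences were set beside these changes for genes that moved together. They come from RefSeq on the mouse build GRCm38.p6 and run from 250 bases before to 50 bases after the annotated start. Capitals mark matches, on either strand, to TATAAA, the TATA box, to TGANTCA, the letters of an AP-1 element, or to the MEF2-type element (CTA, 4 bases of any kind, TAG), which can overlap a TATAAA. Krt10 and Lor are shown for the epidermis, S100a8 and Ppbp for cells and platelets of the blood, Mmp13 for matrix breakdown and Des for muscle.
Krt10 promoter, GRCm38.p6 chr11:99389315-99389614, minus strand: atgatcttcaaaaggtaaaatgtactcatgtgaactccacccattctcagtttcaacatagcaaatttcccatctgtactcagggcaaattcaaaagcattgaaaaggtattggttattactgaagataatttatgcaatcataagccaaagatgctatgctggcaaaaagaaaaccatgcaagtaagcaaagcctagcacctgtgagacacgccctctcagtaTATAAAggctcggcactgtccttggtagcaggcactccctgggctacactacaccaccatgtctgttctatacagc
Lor promoter, GRCm38.p6 chr3:92083093-92083392, minus strand: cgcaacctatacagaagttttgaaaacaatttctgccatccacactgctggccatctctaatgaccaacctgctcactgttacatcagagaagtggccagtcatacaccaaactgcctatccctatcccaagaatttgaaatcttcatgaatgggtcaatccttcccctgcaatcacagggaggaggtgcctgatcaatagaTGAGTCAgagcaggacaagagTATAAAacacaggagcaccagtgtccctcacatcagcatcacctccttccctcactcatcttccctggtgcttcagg
S100a8 promoter, GRCm38.p6 chr3:90668821-90669120, plus strand: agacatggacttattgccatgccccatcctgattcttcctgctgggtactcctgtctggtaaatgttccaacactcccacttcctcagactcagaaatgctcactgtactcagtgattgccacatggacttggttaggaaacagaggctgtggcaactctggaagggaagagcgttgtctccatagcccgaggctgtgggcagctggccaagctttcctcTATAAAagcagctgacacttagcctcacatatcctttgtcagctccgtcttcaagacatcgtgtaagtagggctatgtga
Ppbp promoter, GRCm38.p6 chr5:90768268-90768567, plus strand: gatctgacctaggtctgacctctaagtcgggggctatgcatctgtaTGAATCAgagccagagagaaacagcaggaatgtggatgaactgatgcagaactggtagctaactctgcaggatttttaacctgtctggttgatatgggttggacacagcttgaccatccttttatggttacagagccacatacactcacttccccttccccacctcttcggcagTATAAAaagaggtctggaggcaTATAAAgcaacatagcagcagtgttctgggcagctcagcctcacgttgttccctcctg
Mmp13 promoter, GRCm38.p6 chr9:7272264-7272563, plus strand: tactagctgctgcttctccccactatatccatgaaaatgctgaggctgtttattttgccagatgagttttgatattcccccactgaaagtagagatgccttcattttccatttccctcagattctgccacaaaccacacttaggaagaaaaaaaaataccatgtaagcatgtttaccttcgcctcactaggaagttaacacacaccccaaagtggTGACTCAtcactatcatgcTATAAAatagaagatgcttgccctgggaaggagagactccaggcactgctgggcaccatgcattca
Des promoter, GRCm38.p6 chr1:75360042-75360341, plus strand: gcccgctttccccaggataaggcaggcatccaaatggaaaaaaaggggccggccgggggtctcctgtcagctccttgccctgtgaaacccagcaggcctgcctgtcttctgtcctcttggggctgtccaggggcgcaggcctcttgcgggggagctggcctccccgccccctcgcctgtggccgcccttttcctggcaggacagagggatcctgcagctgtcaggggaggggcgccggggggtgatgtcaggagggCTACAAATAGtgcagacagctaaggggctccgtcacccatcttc

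Among 15614 genes with a promoter in the table, TATAAA was found in 12.1%, TGANTCA in 6.98% and the MEF2-type element in 3.56%. Of 140 genes that rose by a log2 of 2 or more, 56 (40%) held TATAAA and 31 (22.1%) TGANTCA. Of 61 genes that fell by 1.5 or more, 11 (18%) held TATAAA and 9 (14.8%) the MEF2-type element. A TATAAA beginning 45 to 20 bases before the start, where a working TATA box lies, was present in 2.7% of all promoters and 25% of those large rises. On the skin lists it was present in 23.2% of 82 promoters and on the myeloid lists in 11.6% of 86. These are counts of letters and say nothing of which factor bound.

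Neutrophil genes rose as a block without peptide. On 3 lists, 6 of 7 genes of the early azurophilic granule, 14 of 15 of the later granules and 12 of 13 receptors rose, and none fell. With peptide none rose and 1, Ngp, fell. S100a8, a calcium-binding alarm protein stored by neutrophils, read 10.84 and 10.93 in CIA paws and 8.21 and 8.57 in adjuvant paws, a log2 change of 2.49 ± 0.15 (SE, adjusted p = 1.23e-05). With peptide it read 8.48 and 8.77 in CIA+MLIF paws, against 9.39 and 9.35 in adjuvant+MLIF paws, and the difference between contrasts was 3.24. The adjuvant arrays with peptide thus lay above those without it for this gene.

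Mpo, the granule peroxidase, read 9.00 and 9.15 in CIA paws and 6.94 and 6.85 in adjuvant paws. Mmp9, a gelatinase of neutrophils and osteoclasts, read 11.33 and 11.15 in CIA paws, against 8.50 and 8.62 in adjuvant paws, and changed by 2.68 without and -0.32 with peptide. Cxcr2, the receptor that draws neutrophils to tissue, was at least 4.69-fold higher, at 8.70 and 8.30 in CIA paws and 5.93 and 6.03 in adjuvant paws. Ly6g, the surface marker used to define mouse neutrophils, was at least 3.42-fold higher. Azurophilic genes are transcribed in marrow precursors rather than in mature neutrophils, and they rose together with the receptor genes of mature cells.

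Red-cell precursor genes moved with them. Of 7 erythroid genes 6 rose, and 4 did without either adjuvant array and 3 on the deposited scale. Of the 7 genes, 3 were not above the controls on any of the 4 arrays. Slc4a1, the anion exchanger of red cells, read 8.42 and 8.55 in CIA paws and 7.18 and 7.05 in adjuvant paws. The share of marrow in the paws was not measured, and its part in the neutrophil counts was not tested. Eosinophil genes rose for 5 of 7, and Prg2, the major basic protein of eosinophil granules, read 9.81 and 10.08 in CIA paws, against 7.23 and 7.35 in adjuvant paws. Prg2 moved the other way with peptide, at 7.73 and 7.47 in CIA+MLIF paws and 8.67 and 8.74 in adjuvant+MLIF paws, which gave the difference of 3.76.

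Macrophage genes divided by type. Of 16 genes of inflammatory monocytes and macrophages 9 rose and 1 fell, while of 16 genes of resident tissue macrophages none rose and 7 fell, or 4 without adjuvant array 2. Vsig4, a complement receptor of resident cells, read 7.19 and 7.27 in CIA paws and 8.43 and 8.66 in adjuvant paws, a log2 change of -1.32. Lyve1, shared by resident macrophages and lymphatic vessels, read 8.92 and 8.88 in CIA paws, against 10.11 on each adjuvant array. Pdpn and Mmrn1, also made by lymphatic vessels, rose by 0.84 and 0.66. Chil1, a chitinase-like protein, and Mpeg1, a pore-forming protein of macrophages, rose by 1.25 and 1.01.

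Of 54 genes on the lymphoid lists 11 rose and 4 fell, which was near the share called among all genes (27.1%). On the plasma cell and B cell list 6 of 16 rose and 2 fell, or 3 and 2 on the deposited scale. Jchain, which joins antibody units in plasma cells, read 9.04 on each CIA array and 7.67 and 7.69 on the adjuvant arrays, a log2 change of 1.36. Sdc1, a surface proteoglycan of plasma cells that keratinocytes also make, rose by 1.24. Tnfrsf17, a receptor of plasma cells, was below the controls on all 4 arrays. Cd3e, of the T cell receptor complex, changed by 0.20 and was not called. Of 11 class II genes Ctss, a protease of antigen processing, rose by 0.55 and Cd74, the invariant chain, fell by 0.44, and the restriction molecules H2-Aa and H2-Ab1 each changed by 0.10.

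Among the signals of inflammation, the interleukin 1 and 36 family rose for 11 of 15 genes, or 7 on the deposited scale. Il1b, the classic fever cytokine, read 8.31 and 8.98 in CIA paws and 6.91 and 7.21 in adjuvant paws, a log2 change of 1.58, and its change with peptide was -0.14. The interleukin 36 genes, made mainly by keratinocytes, had the largest changes: Il1f9 (interleukin 36 gamma) was at least 4.4-fold higher at 8.47 and 8.34 in CIA paws, against 4.97 and 5.15 in adjuvant paws. Il1f5, the natural antagonist of interleukin 36, was at least 5.16-fold higher. The spinous list rose on the same arrays (10.31 and 10.25 in CIA paws, 5.93 and 6.05 in adjuvant paws), and its part in the interleukin 36 rises was not tested.

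On the list of the interleukin 17 and 23 axis, 7 of 15 genes were not above the controls on any of the 4 arrays. Il17a read 6.04 and 5.74 in CIA paws and 5.74 and 6.08 in adjuvant paws, all below the control medians. Its receptor Il17ra rose by 0.63, and 5 of 15 genes on that list rose, or 3 without adjuvant array 1 and none on the deposited scale. Tnf read 6.98 and 7.22 in CIA paws, against 6.76 and 6.47 in adjuvant paws, a log2 change of 0.49 that was not called, while its receptors Tnfrsf1a and Tnfrsf1b rose by 0.71 and 0.32. Tnfaip6, a hyaluronan-binding protein induced by TNF, read 10.09 and 9.84 in CIA paws and 6.93 and 6.92 in adjuvant paws. On the TNF and interleukin 6 list 9 of 17 genes rose, or 5 on the deposited scale, and the log2 change of 3.04 ± 0.12 (SE) of Tnfaip6 was the largest there, and with peptide it was also called at 0.68. Il6 was below the controls on all 4 arrays, and its receptor subunits Il6ra and Il6st were not called.

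Chemokines that draw neutrophils through CXCR2 were uneven. Cxcl5 was at least 2.77-fold higher, at 7.93 and 7.54 in CIA paws and 5.00 and 5.10 in adjuvant paws. Ppbp, a platelet-stored chemokine of the same family, read 10.40 and 10.38 in CIA paws, against 7.81 and 8.04 in adjuvant paws, and rose by 2.47. Cxcl1 changed by 0.29 and was not called, and Pf4, the other platelet chemokine of the cluster, changed by 0.04. Among 23 other chemokines 8 rose and 5 fell, or 4 and 5 without adjuvant array 1 and 5 and 3 without adjuvant array 2, and 3 and 4 on the deposited scale. Ccl3 rose by 0.92, while Ccl24 and Cxcl9 fell by 1.07 and 0.64. On the prostaglandin and leukotriene list 4 of 16 genes rose and 3 fell, with a median log2 change of 0.04, or 2 and 3 on the deposited scale. Ptgs2, the inducible cyclooxygenase, was among the rises and read 8.07 and 8.40 in CIA paws and 6.57 and 6.80 in adjuvant paws.

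Interferon-induced genes were lower. Of 18 none rose and 9 fell, with a median log2 change of -0.38, and 4 fell without adjuvant array 1 and 5 without adjuvant array 2. Ifit1, an antiviral RNA-binding protein, read 5.54 and 6.06 in CIA paws and 6.77 and 6.98 in adjuvant paws. Its CIA signals were below the control medians, so that only a bound of at least 1.39-fold lower could be given. Oasl2, another antiviral gene, was above the controls on all 4 arrays and fell by 0.52 without and 0.74 with peptide. The difference for Oasl2 was 0.22 ± 0.18 (SE) and was not called.

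**Figure D3:**
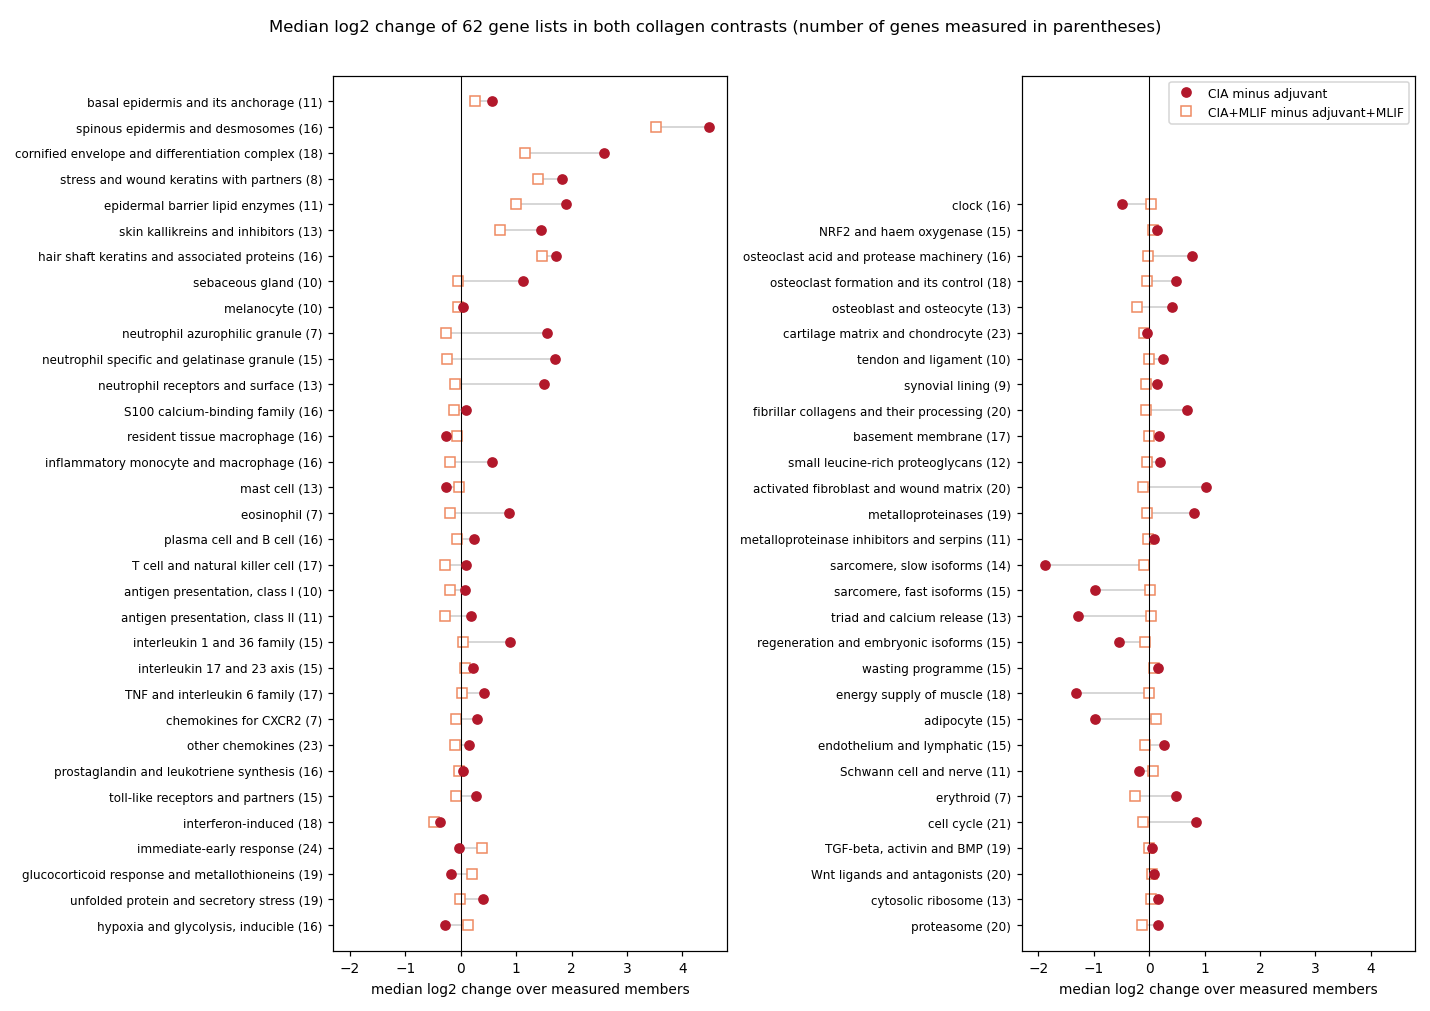
Median log2 change of each of 62 gene lists, with filled circles for CIA minus adjuvant and open squares for CIA+MLIF minus adjuvant+MLIF. Spinous and cornified lists were far to the right in both contrasts, while the neutrophil, osteoclast acid, activated fibroblast, sarcomere and adipocyte lists lay further from 0 without peptide than with it.

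Bone resorption genes rose. On the list for the acid pumps and proteases with which osteoclasts dissolve bone, 14 of 16 genes rose and none fell, none was called with peptide, and for 12 the difference was called. On the deposited scale 9 of the 16 rose. Acp5, the tartrate-resistant acid phosphatase, read 11.60 and 11.50 in CIA paws and 9.22 and 9.44 in adjuvant paws, a log2 change of 2.22 ± 0.10 (SE, adjusted p = 3.28e-06). Ctsk, the collagen-cutting cathepsin, read 11.94 and 11.93 in CIA paws, against 9.73 and 9.87 in adjuvant paws. Atp6v0d2, a pump subunit of osteoclasts, rose by 2.20, and Atp6v1a and Atp6v1h, subunits used by many cells, rose by 1.11 and 0.74.

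Genes that steer osteoclast formation also changed, 12 of 18 higher and 3 lower, or 6 and 2 on the deposited scale. Tnfsf11, the RANK ligand, read 8.64 and 8.45 in CIA paws and 8.12 and 7.98 in adjuvant paws, a rise of 0.50, and its receptor Tnfrsf11a rose by 0.55. Tnfrsf11b, the decoy receptor osteoprotegerin, read 7.68 and 8.00 in CIA paws, against 8.50 and 8.61 in adjuvant paws, and fell by 0.72. Dcstamp, needed for fusion of osteoclasts, was at least 1.67-fold higher. Ligand and decoy thus moved in opposite directions, each beyond the spread between arrays.

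Of 13 osteoblast and osteocyte genes 7 rose and 1 fell, or 4 and 1 without adjuvant array 1 and 3 and 1 on the deposited scale. Ibsp and Alpl, of mineralising osteoblasts, rose by 1.25 and 1.05. Sost, the sclerostin with which osteocytes restrain bone formation, read 7.39 and 7.41 in CIA paws and 8.54 and 8.51 in adjuvant paws, a fall of 1.13. Of 10 tendon and ligament genes 5 rose and 2 fell, or 3 and 2 on the deposited scale, with Kera, keratocan, at 9.80 and 10.06 in CIA paws and 8.34 and 8.46 in adjuvant paws.

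Cartilage genes had no common direction, with 6 of 23 higher and 6 lower, or 3 and 6 on the deposited scale. Col2a1, the collagen used for immunisation in its chicken form, read 10.06 and 9.93 in CIA paws and 9.53 and 9.52 in adjuvant paws, a rise of 0.47. Acan, the main cartilage proteoglycan, changed by -0.01. Cytl1, a secreted chondrocyte protein, read 10.15 and 10.10 in CIA paws, against 12.31 and 12.43 in adjuvant paws, and its fall of 2.24 was the largest on the list. Col10a1, of hypertrophic cartilage, fell by 1.16, while Col11a1 rose by 1.29. The synovial lining list also split: Clic5 and Cd55 fell by 1.24 and 1.21, Htra1 and Cdh11 rose by 0.99 and 0.64, and Prg4 did not change by the test.

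Matrix genes of connective tissue rose broadly, and hardly any did with peptide. Fibrillar collagens and the enzymes that process them rose for 18 of 20 genes, with none called with peptide. Col3a1 read 13.46 and 13.44 in CIA paws and 12.33 and 12.14 in adjuvant paws, and Plod2, a lysyl hydroxylase that fixes collagen cross-links, rose by 1.31. On the list of activated fibroblasts 18 of 20 genes rose, with a median log2 change of 1.03 without and -0.11 with peptide.

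Cthrc1, a secreted protein of activated fibroblasts, read 11.23 and 11.35 in CIA paws and 7.99 and 7.86 in adjuvant paws, a log2 change of 3.36 ± 0.10 (SE, adjusted p = 1.14e-06). Tnn, tenascin N, read 10.49 and 10.30 in CIA paws, against 7.07 and 7.24 in adjuvant paws, a change of 3.24. With peptide these genes changed by 0.13 and 0.05, and both differences were called. Lrrc15 was at least 4.87-fold higher without peptide, and with peptide it read 8.83 and 8.81 in CIA+MLIF paws, against 6.44 and 6.46 in adjuvant+MLIF paws, and was called. Acta2, the actin of myofibroblasts and of vessel walls, changed by -0.17 and was not called. Among small leucine-rich proteoglycans Lum, lumican, stood apart at 12.66 and 12.67 in CIA paws and 10.88 and 10.84 in adjuvant paws.

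Of 19 metalloproteinases and related proteases 14 rose and 1 fell. Mmp13, the collagenase of cartilage and bone, read 12.59 and 12.54 in CIA paws and 10.12 and 10.01 in adjuvant paws, a log2 change of 2.50 ± 0.10 (SE). Mmp3, stromelysin, read 10.90 and 10.95 in CIA paws, against 8.75 and 8.78 in adjuvant paws. The aggrecan-cutting proteases went apart, as Adamts4 rose by 1.20 and Adamts5 fell by 0.61. Their tissue inhibitors did too: Timp1 read 10.93 and 10.99 in CIA paws and 8.67 and 8.89 in adjuvant paws, a rise of 2.18, while Timp3 and Timp4 fell by 0.68 and 1.19 and Timp2 changed by 0.05. Mmp12, the macrophage elastase, was not called without peptide (0.30) and fell by 0.84 with it.

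**Figure D4:**
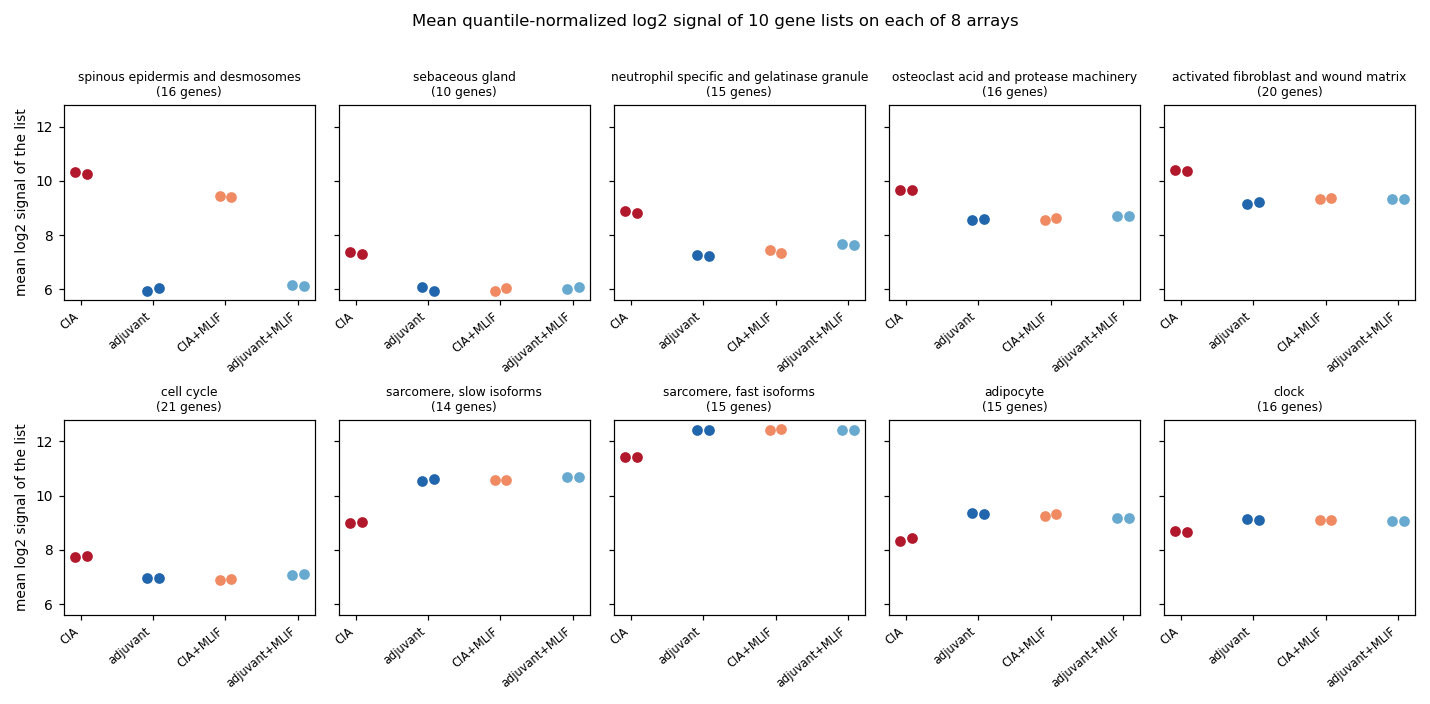
Mean log2 signal of 10 gene lists on each array, CIA to the left of adjuvant and CIA+MLIF to the left of adjuvant+MLIF. Spinous genes were high in both collagen groups, whereas sebaceous, neutrophil, osteoclast, fibroblast and cell cycle lists were highest and the muscle, fat and clock lists lowest on the CIA arrays.

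Muscle genes fell. Of 90 genes on the muscle lists 72 fell and 6 rose without peptide, and none was called with it. Slow-fibre isoforms of the sarcomere fell for 12 of 14 genes with a median log2 change of -1.88, and fast-fibre isoforms for 15 of 15 with a median of -0.98. Myh7, the slow myosin heavy chain, read 7.69 and 7.73 in CIA paws and 10.11 and 10.13 in adjuvant paws, a change of -2.41 ± 0.08 (SE, adjusted p = 1.24e-06). Myl2, the slow regulatory light chain, read 8.94 and 8.99 in CIA paws, against 11.25 and 11.64 in adjuvant paws. Myh2, a fast isoform, read 11.36 and 11.51 in CIA paws, against 12.92 and 12.87 in adjuvant paws, a change of -1.46.

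The mean of the slow list less that of the fast list was -2.42 and -2.37 in CIA paws and -1.87 and -1.81 in adjuvant paws. On the CIA+MLIF arrays it was -1.85 and -1.87, against -1.73 on each adjuvant+MLIF array. The slow list therefore fell further than the fast list in CIA paws relative to adjuvant paws. Tpm3 and Atp2a2, both on the slow list but also expressed outside muscle, changed by 0.06 and 0.28 and were not called.

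All 13 genes of the triad, where the nerve signal releases calcium, fell, and so did all 18 genes of muscle energy supply. Jph1, which ties the triad membranes together, read 9.48 and 9.28 in CIA paws and 11.73 and 11.16 in adjuvant paws, a change of -2.07. Without an adjuvant array 11 of the 13 triad genes were still called. Ppargc1a, a regulator of mitochondria, fell by 1.34. The list of the muscle wasting programme was mixed. There 6 of 15 genes rose and 5 fell, with a median log2 change of 0.15, or 2 and 5 on the deposited scale. Fbxo32 and Trim63, the ubiquitin ligases that mark muscle wasting, were among its falls, by 1.06 and 1.03. Myf6, a regulator of mature fibres, fell by 1.91, whereas Pax7 and Myog, of satellite cells and new fibres, changed by -0.12 and -0.15 and were not called. Embryonic Myh3 read 6.41 and 6.49 in CIA paws and 7.91 and 7.92 in adjuvant paws.

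Adipocyte genes fell for 14 of 15, with a median log2 change of -0.98 and none called with peptide. Plin1, the coat protein of fat droplets, read 8.76 on each CIA array and 10.20 and 10.17 on the adjuvant arrays. Ucp1, the marker of brown fat, was below the controls on all 4 arrays. Among vessel genes, Sele, the endothelial selectin that captures neutrophils, read 8.74 and 8.83 in CIA paws and 7.27 and 7.09 in adjuvant paws, while Pecam1 and Cdh5, present in all endothelium, changed by 0.24 and 0.26 and were not called. Of the Schwann cell genes, Mbp and Pmp22 of the myelin sheath fell by 0.61 and 0.64.

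Cell cycle genes rose for 19 of 21 and none fell, none was called with peptide, and for 19 the difference was called. On the deposited scale 12 of the 21 rose. Top2a, the topoisomerase of dividing cells, read 8.13 and 8.14 in CIA paws and 6.77 and 6.71 in adjuvant paws, and Mki67 read 8.56 and 8.85 in CIA paws, against 7.65 and 7.48 in adjuvant paws. Over all growth lists, which add signalling by TGF-beta and Wnt, ribosome and proteasome, 37 of 93 genes rose and 5 fell. Inhba, the activin A subunit, rose by 1.30.

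Stress and timing genes had mixed directions. Hmox1, which breaks down haem, read 10.62 and 10.58 in CIA paws and 8.47 and 8.51 in adjuvant paws, a log2 change of 2.11 ± 0.09 (SE). Mt2, a metal-binding stress protein, rose by 1.93, while the glucocorticoid-induced genes Tsc22d3, Zbtb16 and Klf15 fell by 0.74, 0.90 and 0.90. On the hypoxia and glycolysis list 5 of 16 genes rose and 7 fell, or 3 and 3 without adjuvant array 1, and 2 and 5 on the deposited scale. Without adjuvant array 2 the falls numbered 4. Hif1a, the oxygen-controlled factor, and Pfkl, of glycolysis, rose by 1.15 and 0.69, and Bnip3 and Adm fell by 0.94 and 0.61. Of 19 genes of secretory stress 10 rose, or 5 without adjuvant array 1 and none on the deposited scale, and Hspa5 rose by 0.57. Clock genes fell for 10 of 16, or 6 without adjuvant array 1, and Bhlhe41, a clock repressor, read 8.72 and 8.61 in CIA paws, against 9.75 and 10.01 in adjuvant paws. The labels used here give no hour of collection, and its part in the clock values was not tested.

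Immediate-early genes are transcribed within minutes of a stimulus. Of 24 on their list 5 rose and 5 fell without peptide, while 7 rose and none fell with it, and the difference was more positive for 2 and more negative for 9. Without peptide the counts were 3 and 3 without adjuvant array 1, 3 and 4 without adjuvant array 2, and 3 and 4 on the deposited scale. Fos read 7.83 and 7.87 in CIA paws and 8.74 and 8.71 in adjuvant paws, a fall of 0.88. It read 8.29 and 8.22 in CIA+MLIF paws and 7.13 and 7.07 in adjuvant+MLIF paws, a rise of 1.16, and the difference was -2.03. The 4 groups thus did not overlap, with adjuvant highest and adjuvant+MLIF lowest. Egr1 and Nr4a1 of that list and Dusp1 of the glucocorticoid list were also called in opposite directions, with falls of 0.85, 0.71 and 0.77 and rises with peptide of 0.81, 1.15 and 1.16. Myc and Fosl2 each rose by 0.97 without peptide and were not called with it.

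Outside the lists, genes were named by the size of their change, each by its probe set of largest change. The 20 probe sets of Myo18b ran from -2.27 to -0.09, and the 2 of Sfn from 2.12 to 2.69. The largest rises included Lgals7, a keratinocyte galectin, at 11.01 and 10.30 in CIA paws and 6.55 and 6.68 in adjuvant paws, and Ly6d, Aqp3 and Sfn, which rose by 3.95, 3.27 and 2.69 and are also made by keratinocytes. Ifitm6, an interferon-induced transmembrane family member, rose by 2.46 without peptide and changed by -0.63 with it. Falls included the muscle genes Myo18b, Nexn and Nrap (2.27, 2.22 and 1.96), and Retnla, a product of alternatively activated macrophages, at 7.33 and 7.72 in CIA paws and 9.34 and 9.41 in adjuvant paws. Inmt, a methyltransferase, read 8.04 and 8.20 in CIA paws, against 10.18 and 10.34 in adjuvant paws. Srsy, which has many copies on the Y chromosome, fell on all 19 of its probe sets, by 2.47 to 2.86, and the signals of its copies cannot be told apart.

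**Figure D5:**
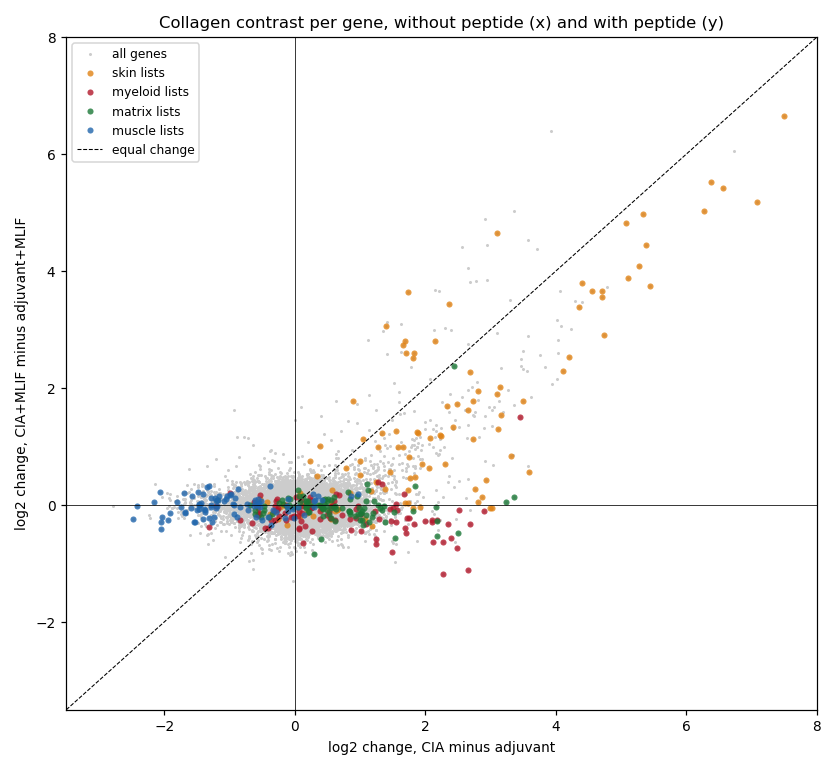
Log2 change of every gene in CIA against adjuvant paws (x) and in CIA+MLIF against adjuvant+MLIF paws (y), with skin, myeloid, matrix and muscle lists coloured and a dashed line of equality. Most skin genes with large changes lie below the line, Krtap8-1 and Krt33b lie above it, and myeloid and matrix genes spread mainly to the right, and muscle genes to the left, near a y of 0.

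The array also carries 298 probe sets for microRNA hairpins, of which 88 were above the controls on all 4 arrays, 35 were called higher and 20 lower, a share of 18.5%. Probe sets for olfactory receptors, of which 27 of 1035 were above the controls on all 4 arrays, were called at 17.3%. Of these calls 17 were higher and 162 lower, and the median log2 change of that class was -0.17. Both shares were under the 28.1% of all probe sets. By direction, however, olfactory receptors were called lower more often than the 13.7% of all probe sets. They were called higher much less often than the 14.4% of all probe sets. Mature microRNAs are too short for these arrays, so a hairpin value reflects a precursor or its host transcript. The mature sequences of the hairpins above the controls that are described next are printed from RefSeq (GRCm38.p6), with bases 2 to 8, the seed that pairs with targets, in capitals.
mmu-miR-680: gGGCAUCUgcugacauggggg
mmu-miR-23a-3p: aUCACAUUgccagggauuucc
mmu-miR-27a-3p: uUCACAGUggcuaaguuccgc

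The same mature miR-680 is encoded by Mir680-1 on chromosome 6, Mir680-2 on chromosome X and Mir680-3 on chromosome 12, and all 3 fell. Mir680-2 read 7.94 and 8.45 in CIA paws and 9.59 and 9.65 in adjuvant paws, a log2 change of -1.42, and the other 2 changed by -1.16 and -0.46. Their sequences are near-identical, and signal may be shared between them. Mir23a and Mir27a lie in 1 cluster on chromosome 8 and differ in their seeds. Mir23a read 8.70 and 9.03 in CIA paws and 9.46 and 9.64 in adjuvant paws, a fall of 0.68, and Mir27a read 9.25 and 9.28 in CIA paws, against 9.82 on each adjuvant array. With peptide they changed by 0.53 and 0.52, and the differences of -1.21 and -1.07 were called. Mir126a, of endothelium, and Mir205, of epidermis, were called higher but were below the controls on all 4 arrays.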

How the data were processed

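RNA of excised paws was hybridised to 8 arrays, 2 in each of 4 groups taken from the labels. The deposited values were read as log2 signals from their range. For the authors' software, normalization and background correction, the sources used here give no name. Scanner files were not used here. Of 35557 entries, 6613 without annotation were taken as controls and left out, an inference from the table, and 28944 probe sets were tested. Of these 21789 had 1 gene symbol, 1621 several and 5534 none in the platform annotation, and 21766 of the first were found in RefSeq.

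Values were quantile-normalized over the tested probe sets. limma 3.58.1 in R 4.3.3 fitted 4 group means to all 8 arrays with lmFit and eBayes, with 4 residual and 3.81 prior degrees of freedom. Tests were two-sided with Benjamini-Hochberg adjustment across the tested probe sets, and a call is an adjusted p under 0.05. Every "called", "rose" or "fell" uses this limma test. On the lists and in counts by gene, a gene had 1 probe set, the one of highest mean signal over all arrays, and 999 genes had several. Genes named outside the lists, and the 6 largest differences in each direction, were instead given by their probe set of largest change or difference. Genes were described by 62 lists, of which 905 of 984 members were measured. Members and lists were chosen with earlier results of these data known. Genes named by rule were up to 4 called members of largest change per list, the 15 largest rises and falls outside the lists that were above the controls without overlap of arrays, and the 6 largest differences between contrasts in each direction. Other members named, and the gene families, were chosen after their values were seen. A bound ("at least") for a rise was given where a gene was above the control median on both CIA arrays and neither adjuvant array. Each adjuvant array was then raised to its control median. For the fall of Ifit1, the CIA arrays were raised in the same way.

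The fit was run on simulated data for CIA against adjuvant with 28944 probe sets. It recovered 5, 40, 47 and 50 of 50 changed probe sets at log2 changes of 0.5, 1, 2 and 3, with 8 false calls. The simulated noise was independent between probe sets, few probe sets changed, and no array was dim or nearly equal to another. The false calls therefore do not measure the error in these data. Replicate numbers were not treated as pairs in the main fit. Same-numbered CIA and adjuvant arrays had deviations that correlated at 0.04, and with 2 arrays a group this cannot decide whether samples were paired. Alternatives covered scaling, a filter on dim probe sets, the variance model, array weights, the arrays fitted, the replicate block, thresholds and leaving out each CIA and adjuvant array. Leaving out each array with peptide, and the deposited values without CIA array 1, were chosen after seeing the data. Figures were drawn with Matplotlib 3.10.9.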

Additional observations from a re-analysis of the deposited data

Results flagged for a closer look

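The collagen contrast differed between mice without and with peptide by limma's test of the difference itself, more positive without peptide for 2544 probe sets and more negative for 2493. The log2 difference was 3.76 for Prg2, 3.45 for S100a9 and 3.24 for S100a8, all products of granulocytes. It was 3.23 for Cthrc1 and 3.19 for Tnn, of activated fibroblasts, and 3.09 for Ifitm6.

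In the other direction the log2 difference was -2.85 for Srsy, of the Y chromosome, and -2.85 for Trdn, of the muscle triad. It was -2.49 for Inmt, -2.46 for Krtap7-1, of hair, whose adjuvant+MLIF signals of 5.77 and 5.76 were below the control medians, -2.39 for Myh7 and -2.29 for Jph1, both of muscle. All 12 of these differences stayed called in the same direction in every alternative that gave them a value. Each was given by the probe set of the gene with the largest difference. For Trdn, the 19 probe sets had log2 changes of -2.95 to -0.39 in CIA against adjuvant.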

How the results depend on the processing

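Counts are given as probe sets higher and lower. For CIA against adjuvant, the main counts of 4176 and 3951 became 1245 and 4108 on the deposited scale, 2752 and 2666 with only the 4 arrays compared, 2355 and 2304 at an adjusted p under 0.01, and 792 and 1012 with a log2 change of at least 1. With array weights the counts were 3045 and 2994. Averaging the probe sets of a gene gave 3332 and 2316. Leaving out each of the 8 arrays in turn gave 2541 to 4895 higher and 2469 to 4628 lower. For CIA+MLIF against adjuvant+MLIF, the main counts of 355 and 58 became 206 and 5 on the deposited scale, 304 and 36 after centring, 368 and 99 without the dimmest probe sets, 399 and 93 with a trended variance, 545 and 212 with array weights, 181 and 2 with the adjuvant+MLIF arrays averaged, 211 and 11 at 0.01, and 202 and 5 with a log2 change of at least 1. Leaving out each of the 8 arrays in turn gave 182 to 472 higher and 2 to 120 lower. The difference between contrasts, 2544 more positive and 2493 more negative, became 469 and 1626 on the deposited scale, 923 and 1375 with the adjuvant+MLIF arrays averaged, 961 and 1412 at 0.01, 702 and 1231 with a log2 change of at least 1, and 2065 and 1309 with the probe sets of a gene averaged. Leaving out each array in turn gave 930 to 3543 and 1389 to 3300. The cause of these shifts was not tested, apart from the stricter thresholds and fewer arrays or entries by construction.

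Deviations of same-numbered arrays correlated at -0.00 to 0.30 over the 6 pairs of groups. These correlations cannot decide whether the samples were paired, because each group held so few arrays. With the replicate block, 4180 were higher and 3939 lower in CIA against adjuvant, 288 and 38 with peptide, and 2511 and 2492 for the difference. Of 271 named changes in CIA against adjuvant, 237 stayed called in the same direction on the deposited scale, 33 lost the call and 1 reversed: Tyrp1, with a log2 change of 0.35, had -0.0374 there. In the other alternatives that tested all 271, 252 to 270 stayed called and none reversed. Signals near the control medians limit small changes.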
